A study of Mus musculus with 30 samples.

Results

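The genes described here are 10 components of the Wnt pathway in NIH3T3-CG cells, a mouse embryonic fibroblast line: the ligand gene Wnt5a, the feedback genes Rnf43, Znrf3, Axin2 and Nkd1, the membrane inhibitor gene Apcdd1, and the secreted inhibitor genes Dkk2, Dkk3, Sfrp1 and Sfrp2. They were taken by name, with earlier results of these data known, and are 10 of 36047 genes with a count in the transcriptome tables. For each gene, the estimated read counts of all its annotated transcripts were added up in each of 30 bulk RNA-seq libraries.

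The libraries form 10 groups of 3. In the transduction experiment, cells carrying a Prrx1 construct were given doxycycline or no doxycycline. In the transfection experiments, cells received a Prrx1, a Snai1, an Egr1, a Jun or a Srebf2 plasmid, and their controls received a control plasmid. A common set of 3 control libraries served for Prrx1 and Snai1, another set for Egr1 and Jun, and Srebf2 was paired with controls of its own. All groups are of the same cell line and differ only in the construct and in doxycycline, as far as the labels say. No group received doxycycline without the Prrx1 construct, so that the drug and the induced factor cannot be told apart. The labels do not say whether the replicates of a group were separate cultures, or whether the transduced cells were 1 clone; the p-values rest on the spread among the libraries as deposited, and this spread may be technical.

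Wnt proteins are secreted lipid-modified ligands that bind Frizzled receptors. In the canonical branch they stabilise beta-catenin, which acts with TCF factors on target genes, while Wnt5a is best known for signalling without beta-catenin. Several canonical target genes encode brakes on the pathway: RNF43 and ZNRF3 are membrane ubiquitin ligases that remove Frizzled from the cell surface, AXIN2 is a scaffold of the complex that degrades beta-catenin, and NKD1 binds Dishevelled. In the extracellular space, DKK2 binds the LRP coreceptors, SFRP1 and SFRP2 bind Wnt proteins, and APCDD1 is a membrane protein that binds Wnt and LRP5; DKK3 belongs to the Dickkopf family by sequence, and its role in Wnt signalling is less settled.

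The result on Rnf43 below turns on where its reads were placed, and promoter sequence is therefore shown for it first. RefSeq (GRCm38.p6) gave promoter windows for 5 of the 10 genes, with 2 windows for Rnf43. The 250 bases before each of the 2 Rnf43 start sites, and before the Nkd1 start site, are given 5′ to 3′ on the plus strand. The first is chr11:87662837-87663086, the second is chr11:87699647-87699896, and that of Nkd1 is chr8:88527383-88527632.
Rnf43, first start: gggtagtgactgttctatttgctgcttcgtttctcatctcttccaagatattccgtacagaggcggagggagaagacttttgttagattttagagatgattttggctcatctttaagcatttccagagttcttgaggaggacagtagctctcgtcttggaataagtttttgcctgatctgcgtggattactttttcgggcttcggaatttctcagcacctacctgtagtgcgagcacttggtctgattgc
Rnf43, second start: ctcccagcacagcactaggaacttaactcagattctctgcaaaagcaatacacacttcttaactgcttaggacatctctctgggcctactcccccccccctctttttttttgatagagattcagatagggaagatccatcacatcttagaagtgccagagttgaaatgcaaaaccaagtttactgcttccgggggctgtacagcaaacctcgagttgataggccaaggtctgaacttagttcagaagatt
Nkd1: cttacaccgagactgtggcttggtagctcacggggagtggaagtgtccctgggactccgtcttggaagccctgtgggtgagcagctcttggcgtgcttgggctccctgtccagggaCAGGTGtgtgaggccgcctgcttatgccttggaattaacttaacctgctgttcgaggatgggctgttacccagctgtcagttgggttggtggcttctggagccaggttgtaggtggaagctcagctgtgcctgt
The capitals in the Nkd1 window mark CAGGTG, an E-box of the kind that Snai1 binds. The first Rnf43 window lies wholly inside exon 1 of the longest Rnf43 transcript annotated as a retained intron. It spans bases 116 to 365 of the 3116 of that transcript. In the GENCODE M21 annotation, 1278 of the 2146 bases of that exon are in no other Rnf43 transcript. The second Rnf43 window ends just before the start of a protein-coding Rnf43 transcript.

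Motifs were searched on both strands of all 6 windows (both of Rnf43, and those of Axin2, Nkd1, Dkk2 and Sfrp2), each of 300 bases including 50 after the start. CAGGTG in the Nkd1 window was the only match, and 20.2% of 32851 RefSeq promoter windows of the same length held that motif. The other motifs searched were CTTTGAT for TCF (3.73% of all promoter windows), TGANTCA for AP-1, which Jun belongs to (7.81%), GCGNGGGCG for Egr1 (5.55%), TCACNCCAC for SREBP (1.24%) and TAATTA for homeodomain factors such as Prrx1 (5.29%). These letters did not occur in the 6 windows. The GC content was 46.7% in the first and 44.3% in the second Rnf43 window, below the median of 52.7% over all promoter windows, while it was 70.0% in the Axin2 and 66.0% in the Sfrp2 window.

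Each library held 7996355 to 37068611 estimated counts, the fewest in the transduction experiment (7996355 to 17129632) and the most in the Egr1 and Jun experiment. Fibroblast markers were present in every group, with a summed level of 15218 to 27774 CPM over 8 genes and none of them at 0. CPM are read counts scaled to the library total, adjusted by TMM factors over all 30 libraries. The delivered factor was higher in each comparison. Prrx1 averaged 3590 ± 247 CPM with doxycycline and 953 ± 71.5 CPM without (SD, n = 3 each), and 16327 ± 2753 CPM after Prrx1 transfection against 593 ± 93.6 CPM in its controls. The log2 change was 1.95 for Prrx1 with doxycycline, 4.78 for Prrx1, 6.94 for Snai1, 3.25 for Egr1, 4.47 for Jun and 2.07 for Srebf2 by transfection, with adjusted p-values of 3.94e-04 or below. Throughout, adjusted p is from edgeR's quasi-likelihood test, two-sided, with Benjamini-Hochberg adjustment over all genes of the fit, and "called" means an adjusted p under 0.05.

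Of the 10 genes, 6 were expressed well enough to be tested in every comparison: Wnt5a, Rnf43, Znrf3, Apcdd1, Dkk2 and Dkk3. Per transcript length (TPM), Dkk3 had the highest median level over the 30 libraries, at 31.6 TPM, followed by Apcdd1 at 15.8 TPM. Dkk2 (7.09 TPM), Znrf3 (6.44 TPM) and Wnt5a (5.89 TPM) had similar medians, and Rnf43 was lowest of the 6 at 2.55 TPM. The medians of Nkd1, Axin2 and Sfrp1 were 0.0482, 0.0273 and 0.0167 TPM, and that of Sfrp2 was 0.

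**Figure D1:**
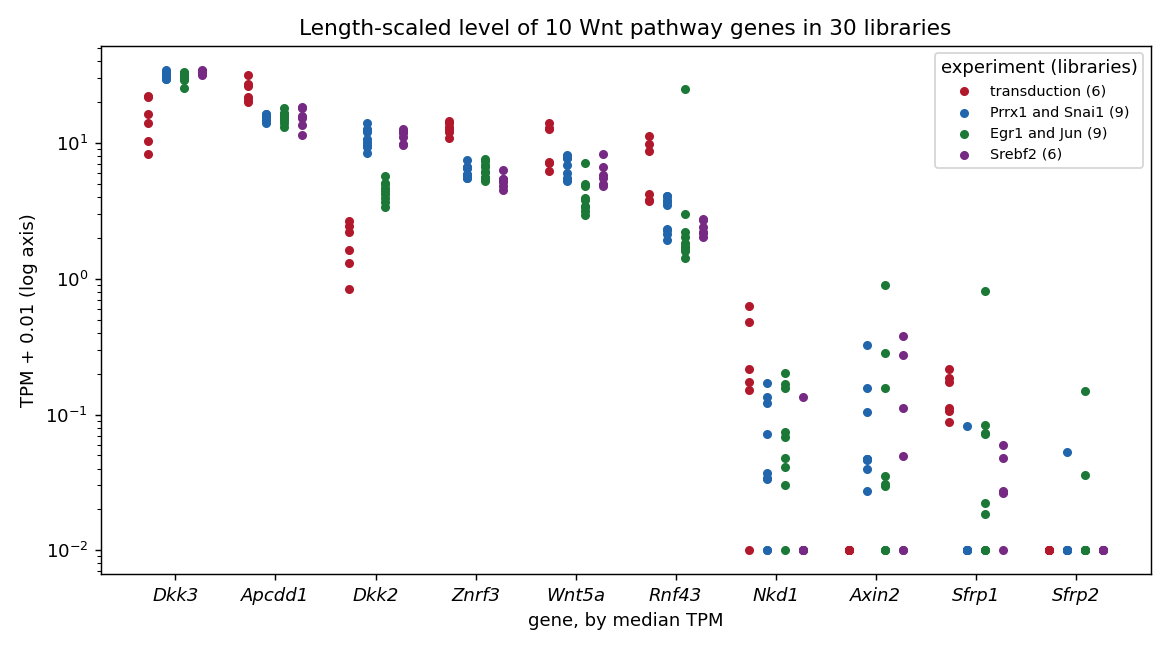
Length-scaled level (TPM + 0.01, log axis) of the 10 genes in each of 30 libraries, coloured by experiment, with genes ordered by their median. Points at 0.01 are libraries with a level of 0; Dkk3 and Apcdd1 lie highest, and Nkd1, Axin2, Sfrp1 and Sfrp2 lie below 1 TPM in every library.

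The canonical feedback genes Axin2 and Nkd1 and the inhibitor genes Sfrp1 and Sfrp2 were near the limit of detection. Over all 30 libraries Axin2 had 97 counts, Nkd1 96, Sfrp1 135 and Sfrp2 5, and they were at 0 in 11, 9, 12 and 27 libraries in that order. A count of 0 allows up to 3 counts, or 0.0817 to 0.378 CPM depending on the library. Axin2 had 0 counts in all 3 doxycycline and all 3 no-doxycycline libraries. Nkd1 had 0, 0.356 and 0.298 CPM with doxycycline against 0.29, 1.1 and 0.844 CPM without, and 8 against 25 counts in all, so that the ranges overlapped. With all libraries in the fit, none of the 4 genes passed the filter on low counts in any comparison. Without a filter, or with a library left out, they entered 87 fits in all, in which none was called (lowest adjusted p = 0.158), at counts that give little precision. Axin2 had more than 7 counts only in Egr1 replicate 3 (39) and Egr1-Jun control replicate 2 (23), described below as standing apart. Its fits without a call therefore do not show that its level was unchanged.

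With doxycycline-induced Prrx1, Wnt5a, Rnf43, Apcdd1 and Dkk3 were higher, which is 4 of the 6 tested, beside 3.46% of 13632 genes called higher in the same comparison (6.19% in either direction); Znrf3 and Dkk2 were not called. The median log2 change of the 6 was 0.66, beside -0.01 over all genes tested. The genes were chosen with earlier results of these data known, so that setting them beside all genes is a description and not a test.

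Wnt5a, the ligand, had 31.2, 28.5 and 27.9 CPM in the doxycycline libraries, against 15.8, 17.4 and 14.9 CPM in the no-doxycycline libraries. The lowest doxycycline library lay well above the highest without. The log2 fold change was 0.90 ± 0.127 (SE; 95% interval 0.62 to 1.18; 1.86-fold; adjusted p = 0.00135). With each library left out in turn, Wnt5a stayed called in all 6 fits.

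Rnf43, a feedback ligase, had 17.0, 15.7 and 17.1 CPM with doxycycline, against 8.76, 7.34 and 8.78 CPM without. The groups were far apart, and the spread within each was small. The log2 fold change was 1.03 ± 0.164 (SE; 95% interval 0.67 to 1.39; 2.04-fold; adjusted p = 0.00308), and it stayed called in all 6 fits with a library left out. Its paralog Znrf3 had 37.7, 41.3 and 32.4 CPM with doxycycline, against 36.0, 32.7 and 37.3 CPM without, with overlapping groups. Its log2 difference was 0.10 (95% interval -0.17 to 0.37; adjusted p = 0.710).

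Apcdd1, the membrane inhibitor, had 52.6, 53.0 and 60.9 CPM with doxycycline and 42.8, 43.2 and 38.7 CPM without. The groups did not overlap, but the gap between them was smaller than for Wnt5a and Rnf43. The log2 fold change was 0.45 ± 0.103 (SE; 95% interval 0.23 to 0.68; 1.37-fold; adjusted p = 0.0240). The call was lost without doxycycline replicate 1 (adjusted p = 0.0687), 2 (0.0854) or 3 (0.134), or without no-doxycycline replicate 3 (0.0962), with log2 changes of 0.38 to 0.49.

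The 2 expressed Dickkopf genes differed. Dkk3 had 31.6, 44.3 and 45 CPM with doxycycline, against 19.3, 28.5 and 21 CPM without; the lowest doxycycline library lay just above the highest without. Its log2 fold change was 0.86 ± 0.177 (SE; 95% interval 0.47 to 1.25; 1.82-fold; adjusted p = 0.0164), and the call was lost without doxycycline replicate 2 (0.0928) or 3 (0.103), or without no-doxycycline replicate 3 (0.084). Dkk2 had 3.49, 1.87 and 5 CPM with doxycycline and 3.31, 5.92 and 5.57 CPM without. Its groups overlapped, and its log2 difference of -0.46 had a wide interval (-1.30 to 0.38; adjusted p = 0.578).

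**Figure D2:**
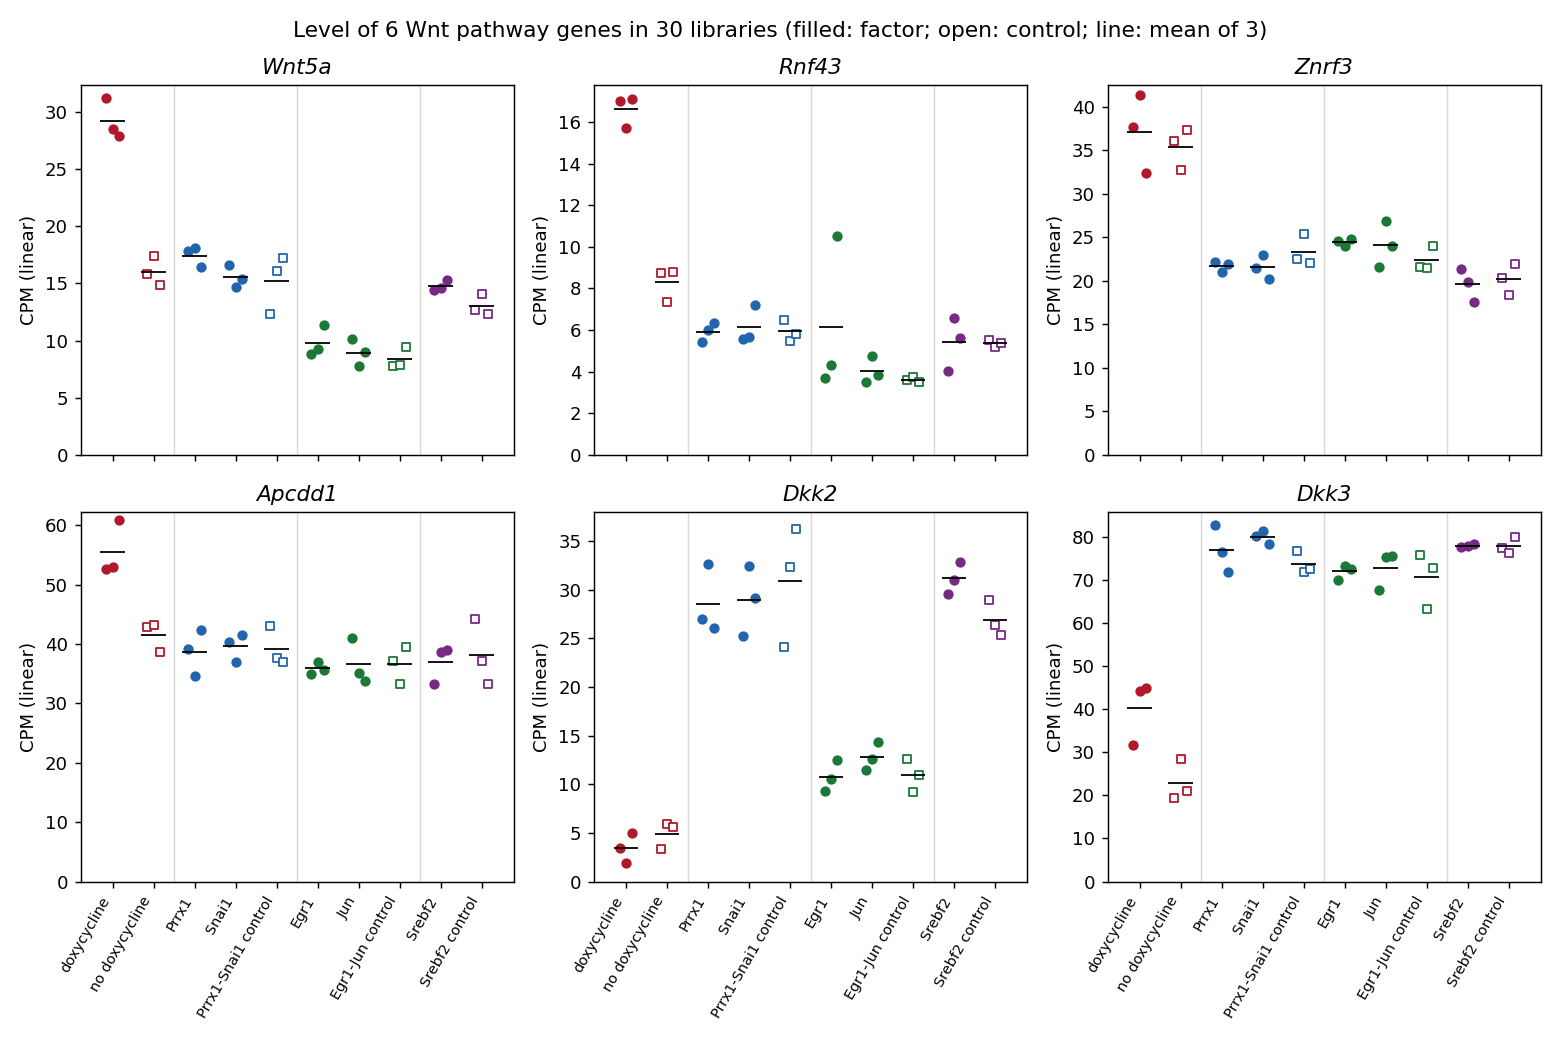
CPM of the 6 expressed genes in each library of the 10 groups, with the group mean as a line; filled circles are groups with a factor, open squares are their controls, and vertical lines part the 4 experiments. Wnt5a, Rnf43, Apcdd1 and Dkk3 lie higher with doxycycline than without, Dkk2 and Dkk3 lie lower in the transduction experiment than in the others, and Egr1 replicate 3 stands alone for Rnf43.

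The Rnf43 counts of the transduction experiment lay mostly on a transcript annotated as a retained intron, not as protein-coding. Of the 9 Rnf43 transcripts, the 3 retained-intron ones held 73.7 ± 1.76% of the gene's counts with doxycycline and 69.6 ± 13.2% without (SD, n = 3 each). In the other 8 groups the mean share was 23.4% to 39.0%. Nearly all of it was the longest of the 3, which held 73.4% with doxycycline and 69.6% without; 1651 of its 3116 bases are in no other Rnf43 transcript, among them 1278 of the 2146 bases of exon 1 (chr11:87662722-87664867), where the first promoter window above lies.

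The retained-intron transcripts had 12.4, 11.9 and 12.3 CPM with doxycycline, against 5.57, 6.22 and 5.31 CPM without, and the groups did not overlap. The protein-coding transcripts had 4.55, 3.41 and 4.74 CPM with doxycycline, against 3.19, 1.12 and 3.47 CPM without, and the groups overlapped. Counting protein-coding transcripts alone, a choice made after the data were seen, the Rnf43 log2 difference was 0.72 with an adjusted p of 0.468, so that its call ended, while Wnt5a, Apcdd1 and Dkk3 stayed called. The split of reads between overlapping transcripts is an estimate of the quantification program. Over the whole transcriptome, retained-intron transcripts held 6.21 ± 0.16% of counts with doxycycline and 6.01 ± 0.58% without, beside group means of 2.73% to 3.11% in the transfection experiments; the part of this difference between experiments in the Rnf43 counts was not tested.

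**Figure D3:**
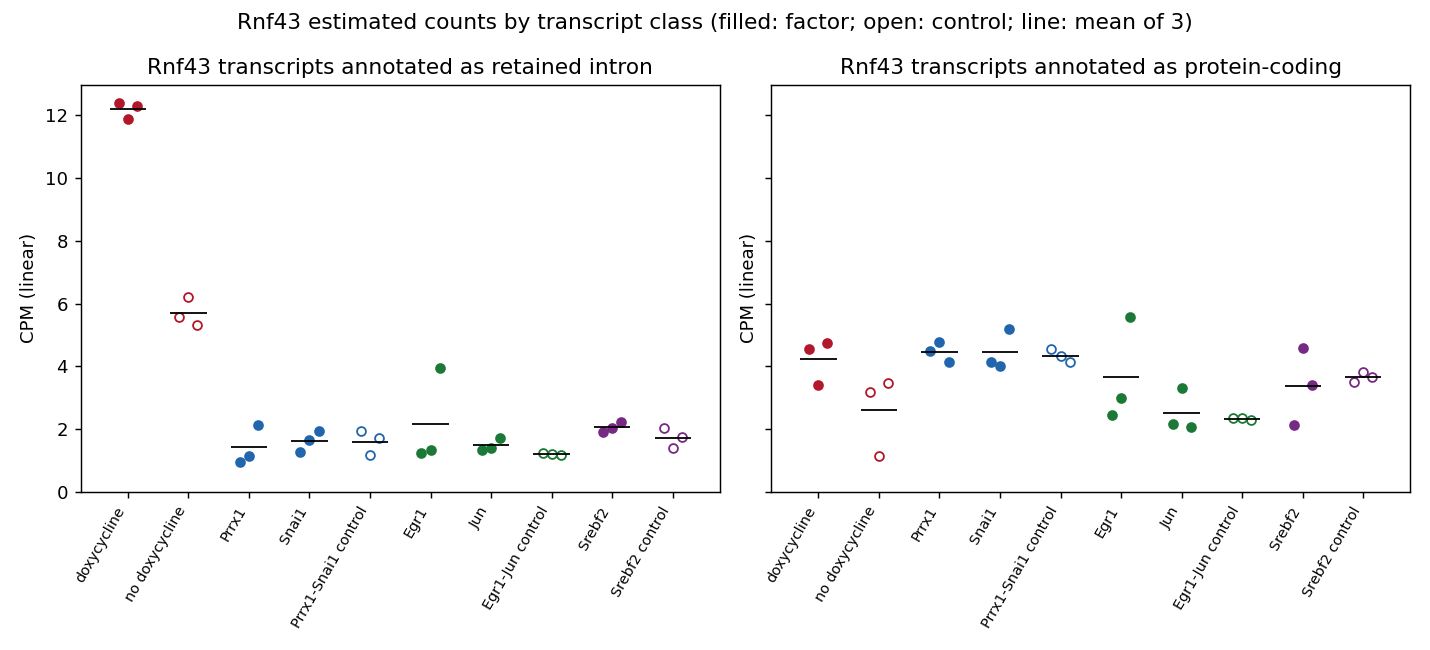
CPM of the Rnf43 transcripts annotated as retained intron (left) and as protein-coding (right) in each library of the 10 groups, with the group mean as a line; filled points are groups with a factor and open points their controls. The retained-intron transcripts stand at 11.9 to 12.4 CPM with doxycycline and 5.31 to 6.22 CPM without, above all transfection libraries, while the protein-coding transcripts overlap between groups.

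Prrx1 delivered by plasmid reached a higher Prrx1 level, and none of the 6 genes was called, beside 2.98% of 13108 genes. Without Prrx1-Snai1 control replicate 1 the genes called numbered 2641 in place of 391, and still none of the 6 was among them. Wnt5a had 17.8, 18.1 and 16.4 CPM after Prrx1 transfection, against 12.3, 16.1 and 17.2 CPM in the controls, and the groups overlapped. Its log2 difference was 0.20 (95% interval -0.05 to 0.45; adjusted p = 0.427), and that of Rnf43 was 0.00 (-0.31 to 0.31; adjusted p = 1). For Apcdd1 and Dkk3 the differences were -0.02 (-0.22 to 0.18) and 0.07 (-0.08 to 0.21).

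The difference between the 2 ways of delivering Prrx1 was itself tested, as the doxycycline effect minus the transfection effect in a fit of both experiments. It was called for Wnt5a (0.69 ± 0.183 on the log2 scale, SE; adjusted p = 0.0414), Rnf43 (1.02 ± 0.218; adjusted p = 0.0139) and Dkk3 (0.80 ± 0.196; adjusted p = 0.0299), which is 3 of 6 and in the positive direction, beside 1.98% of 15216 genes called in that direction. Apcdd1 (0.47, 95% interval 0.15 to 0.79; adjusted p = 0.101), Znrf3 (0.20, -0.13 to 0.54) and Dkk2 (-0.31, -1.14 to 0.52) were not called. The median over the 6 was 0.58, beside -0.03 over all genes. Here too the genes were chosen with earlier results known, and the values beside all genes are descriptions. The 3 calls were not equally firm: with each of the 12 libraries left out in turn, Rnf43 kept its call in 11 fits, and lost it without Prrx1 replicate 1 (adjusted p = 0.054). Dkk3 kept its call in 3 of the 12 fits, those without doxycycline replicate 1, no-doxycycline replicate 2 or Prrx1-Snai1 control replicate 1, and Wnt5a in 2, the last 2 of these, with adjusted p-values up to 0.0945 for Dkk3 and up to 0.156 for Wnt5a; with the replicate number as a block Wnt5a lost its call (0.69; adjusted p = 0.061), and with protein-coding transcripts alone, Rnf43 (0.66; adjusted p = 0.541) and Dkk3 (0.80; adjusted p = 0.0537) lost theirs. limma on log2(TPM + 1) ended all 3 calls, with adjusted p-values of 0.0742 for Wnt5a, 0.174 for Rnf43 and 0.148 for Dkk3. The 2 effects come from different experiments, so that the way of delivery, doxycycline and the experiment cannot be told apart.

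Snai1, a repressor that acts through E-boxes, was followed by no call among the 6 genes, beside 1.62% of 13108 genes; without Prrx1-Snai1 control replicate 1, 3058 genes in place of 212 were called and again none of the 6. The log2 differences against the same control libraries ran from -0.12 for Znrf3 (95% interval -0.31 to 0.07) to 0.11 for Dkk3 (-0.03 to 0.26). Wnt5a had 16.6, 14.7 and 15.4 CPM after Snai1 transfection, inside the range of the controls. Set directly against Prrx1 transfection, Snai1 transfection gave differences from -0.17 for Wnt5a (-0.42 to 0.08) to 0.05 for Rnf43 and Dkk3, and none of the 6 was called, beside 0.252% of genes.

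Egr1 and Jun, immediate early factors, gave no call among the 6 genes either, beside 0.325% of 14481 genes for Egr1 and 0.967% for Jun. The largest difference was that of Rnf43 with Egr1, and it lay in a single library. Rnf43 had 3.70, 4.30 and 10.5 CPM in the Egr1 libraries, against 3.60, 3.75 and 3.48 CPM in the controls. Its log2 difference of 0.77 had an interval of -0.01 to 1.56 (adjusted p = 0.487), and was 0.15 without Egr1 replicate 3 (adjusted p = 0.844). With Jun it was 0.15 (-0.64 to 0.94), from 3.49, 4.73 and 3.84 CPM. For the other 5 genes the differences ran from -0.03 to 0.24 with Egr1 and from 0.00 to 0.22 with Jun. Jun set against Egr1 gave none of 6 called, beside 0.449% of genes, with Rnf43 at -0.63, and at 0.00 without Egr1 replicate 3.

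**Figure D4:**
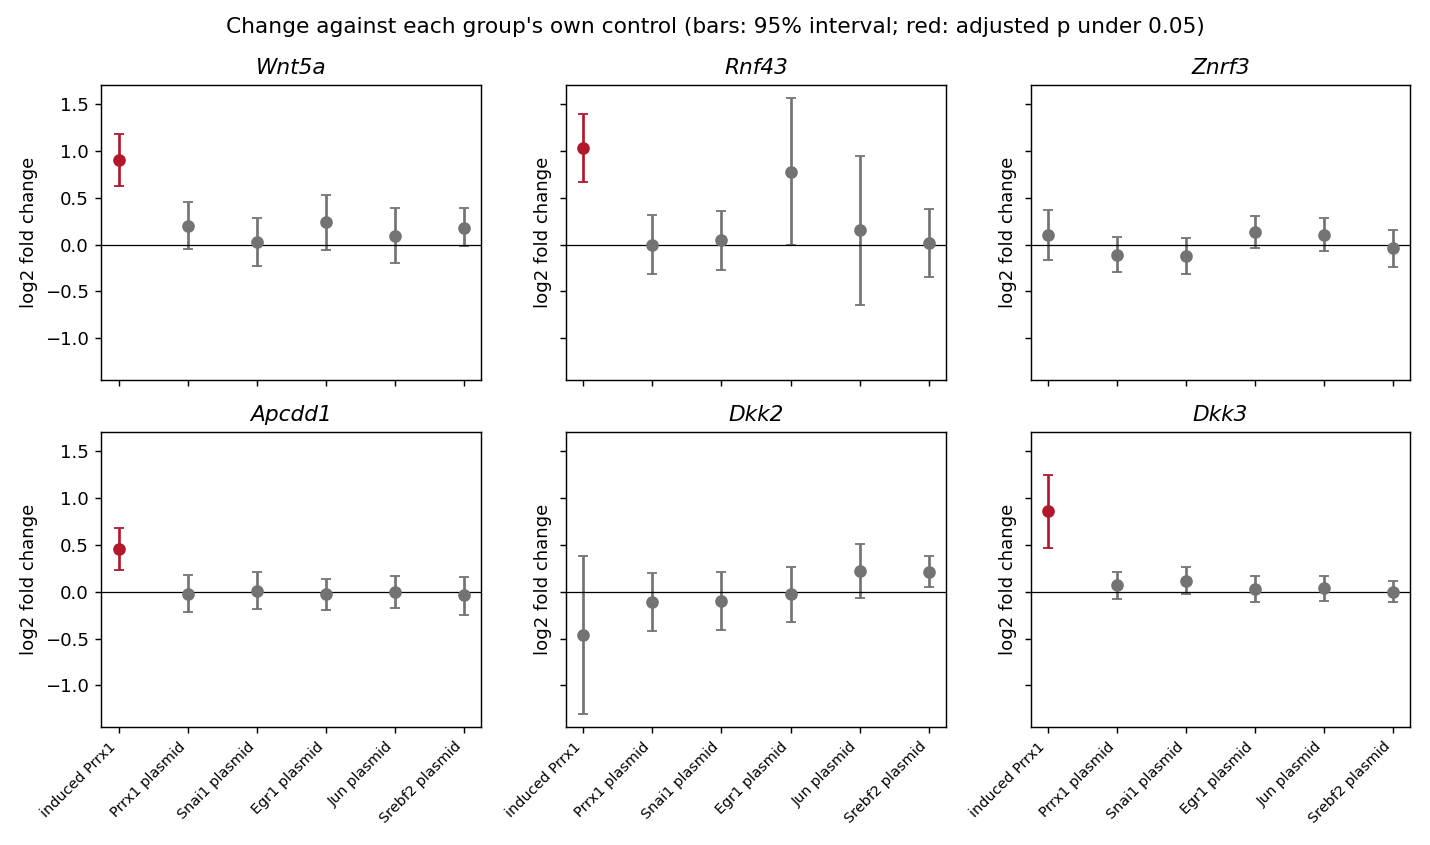
Log2 fold change of the 6 expressed genes in each group with a factor against its own control, with the 95% interval as a bar; red marks an adjusted p under 0.05. The calls are those of Wnt5a, Rnf43, Apcdd1 and Dkk3 with induced Prrx1, and the widest intervals among the plasmid comparisons are those of Rnf43 with Jun and with Egr1.

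2 libraries of this experiment stand apart. Egr1 replicate 3 had Axin2 at 1.31 CPM and Rnf43 at 10.5 CPM, against 3.48 to 4.73 CPM of Rnf43 in the other 8 libraries. The same library had epithelial transcripts: Krt18, a simple-epithelium keratin, was at 105 CPM (at most 3.37 CPM in the others), Krt8 at 30.9 CPM (at most 5.18) and the adhesion molecule gene Epcam at 17 CPM (at most 2.22), and the 5 epithelial markers summed to 154 CPM. Of that list, Cdh1, the E-cadherin gene, was not raised there (1.08 CPM, against up to 1.82 CPM in the others). The 5 neural markers summed to 33.6 CPM, mostly from the astrocyte gene Gfap (15.5 CPM, against at most 3.31) and Tubb3 (13.8 CPM). Tubb3 was higher still in Egr1-Jun control replicate 2 (22.5 CPM). Map2 (0.135 CPM), Rbfox3 (0.337 CPM) and Snap25 (3.87 CPM) were not raised in Egr1 replicate 3. Nkd1, at 0.236 CPM, and Sfrp1, at 0.0337 CPM, were not highest in this library, and Sfrp2 had 0 counts. Egr1-Jun control replicate 2 had Sfrp1 at 2.66 CPM (at most 0.228 in the others) and Axin2 at 0.815 CPM, together with the neuronal transcripts Map2 at 53.6 CPM (at most 1.91) and Snap25 at 13.8 CPM (at most 4.87); its 5 neural markers summed to 94.6 CPM. The part of these transcripts in the Axin2, Sfrp1 and Rnf43 values was not tested. Without both libraries, the Rnf43 difference with Egr1 was 0.18 (adjusted p = 0.777) and still none of the 6 genes was called with Egr1 or Jun.

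**Figure D5:**
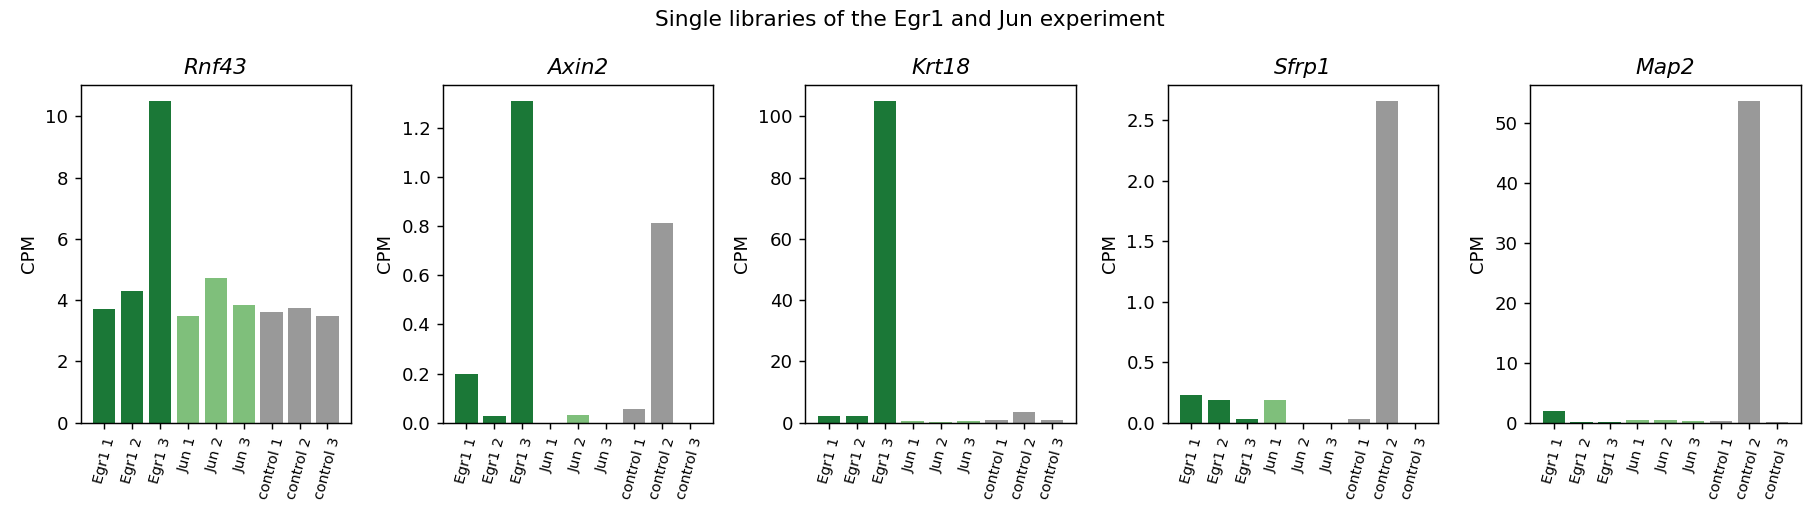
CPM of Rnf43, Axin2, Krt18, Sfrp1 and Map2 in the 9 libraries of the Egr1 and Jun experiment, 1 bar per library (dark green Egr1, light green Jun, grey control). Rnf43, Axin2 and Krt18 are highest in Egr1 replicate 3, and Sfrp1 and Map2 in control replicate 2.

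Srebf2, the factor that drives cholesterol synthesis genes, was followed by a call for 17.2% of 12728 genes, and none of the 6 Wnt pathway genes was among them. Dkk2 came nearest, with 29.6, 31 and 32.9 CPM after Srebf2 transfection, against 29.0, 26.4 and 25.4 CPM in the controls. The groups did not overlap, and the log2 difference was 0.21 (95% interval 0.05 to 0.38; adjusted p = 0.0696); it was called only without Srebf2 control replicate 1 (0.27; adjusted p = 0.0451). Wnt5a had 14.4, 14.6 and 15.3 CPM against 12.7, 14.1 and 12.3 CPM, also without overlap, with a log2 difference of 0.18 (-0.02 to 0.39; adjusted p = 0.206). By TPM its direction turned, with 5.19 ± 0.524 TPM after Srebf2 transfection and 6.83 ± 1.38 TPM in the controls (SD, n = 3 each), a difference of -0.37 on the log2(TPM + 0.1) scale (limma, adjusted p = 0.192), so that no direction is given for it. Rnf43, Znrf3, Apcdd1 and Dkk3 lay between -0.04 and 0.02. Over the 5 plasmid comparisons with a control and the 2 between plasmids, an unadjusted p under 0.05 was reached once, by Dkk2 with Srebf2 (0.0142), and DESeq2 called 0 of the 6 genes in each.

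Levels across the 4 experiments are described here and not tested, since the delivery, the handling and any batch of an experiment cannot be told apart. Dkk2 had the widest span: its group means were 26.9 to 31.2 CPM in the Prrx1 and Snai1 and the Srebf2 experiments, 10.7 to 12.8 CPM in the Egr1 and Jun experiment, and 3.45 ± 1.56 CPM with and 4.93 ± 1.42 CPM without doxycycline. Its highest group mean was 9.04 times its lowest. Dkk3 had group means of 70.5 to 79.9 CPM in all transfection groups, and 40.3 ± 7.53 CPM with and 22.9 ± 4.9 CPM without doxycycline.

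Wnt5a stood in the order doxycycline (29.2 ± 1.75 CPM), then the Prrx1, no-doxycycline, Snai1, Prrx1-Snai1 control and Srebf2 groups at 14.8 to 17.4 CPM, whose neighbours overlapped. The Srebf2 controls at 13.0 CPM came next, and the Egr1 and Jun experiment was last at 8.34 to 9.82 CPM. Those Srebf2 controls (12.3 to 14.1 CPM) overlapped neither neighbour in the order, but did overlap the Prrx1-Snai1 controls (12.3 to 17.2 CPM). Rnf43 stood in the order doxycycline (16.6 ± 0.794 CPM), no doxycycline (8.29 ± 0.824 CPM), then 5.37 to 6.17 CPM in the Egr1, Snai1, Prrx1 and Srebf2 groups and the controls of the Prrx1 and Snai1 and the Srebf2 experiments, and last the Jun group (4.02 CPM) and its controls (3.61 CPM). The place of the Egr1 group, at 6.17 CPM, rests on replicate 3, and its other 2 libraries averaged 4.0 CPM. Znrf3, for its part, had 37.1 ± 4.49 CPM with and 35.3 ± 2.39 CPM without doxycycline, and group means of 19.6 to 24.4 CPM after transfection. Apcdd1 was the most even, with 55.5 ± 4.69 CPM with doxycycline and 35.9 to 41.5 CPM in the other 9 groups, whose neighbours all overlapped. In the transduction experiment the 4 endothelial markers summed to 14.4 to 21.5 CPM, against 2.51 to 5.66 CPM in the transfection libraries. That sum was mostly Pecam1, at 12.8 to 21.2 CPM against 0.749 to 2.04 CPM, and the rest of the list was not higher. The 5 neural markers summed to 4.27 to 6.33 CPM in the transduction experiment, against at least 12 CPM. The part of such differences in these levels was not tested.

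Across the 30 libraries, each centred on its experiment's mean log2 level, Wnt5a was most like Atr (Pearson r = 0.90), Pitpnc1 (0.88) and Irs1 (0.87) among 10244 genes. Rnf43 was most like Aldh1a1 (0.82), Tnfrsf21 (0.79) and Itgb4 (0.75). Between the genes described here, r was 0.67 for Wnt5a with Dkk3, 0.64 for Wnt5a with Rnf43, 0.52 for Wnt5a with Apcdd1, and 0.03 for Wnt5a with Znrf3. These values are descriptions: any batch within an experiment is unknown, and the doxycycline contrast is in each value.

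Other genes of the pathway were followed on lists of ligands, receptors, secretion and R-spondin genes, inhibitors, transducers, TCF cofactors, reported targets and planar polarity genes, 104 measured genes in all. The lists too were chosen with earlier results of these data known, so that the shares called are descriptions. With doxycycline, 6 of 66 tested were higher and 2 lower, or 12.1% called beside 6.19% of all genes tested. The ligand gene Wnt9a fell by 0.80 on the log2 scale (adjusted p = 0.00279; 30.7 ± 2 CPM with and 54.6 ± 7.69 CPM without doxycycline), while the receptor gene Fzd1 rose by 0.50 (adjusted p = 0.0416). Of the 5 other inhibitors tested, Igfbp4, an IGF-binding protein gene, rose by 0.82 (adjusted p = 3.08e-04). Among 12 TCF factors and cofactors, the Groucho corepressor genes moved in opposite directions, Tle1 by -0.80 and Tle3 by 0.72 (adjusted p = 1.80e-04 and 0.00167), and Tcf7l2 rose by 0.42. Ccnd1, the cyclin D1 gene and a reported Wnt target, rose by 1.32 (270 ± 21.8 CPM with and 111 ± 9.04 CPM without doxycycline; adjusted p = 7.22e-06), though 77.7% of its 31-base words are unique to it and its counts may be shared with other loci. The formin gene Daam2 rose by 0.42. None of the 15 genes of the destruction complex and its transducers was called.

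By transfection, 1 of 67 list genes was lower with Prrx1 (Myc, -0.31; adjusted p = 0.0206), or 1.49% beside 2.98% of all genes, and none was called with Snai1, beside 1.62%. With Egr1, 1 of 73 was higher (the corepressor gene Tle4, 0.49) and 1 lower (Fosl1, an AP-1 gene, -0.41), or 2.74% beside 0.325% of all genes. With Jun 1 of 73 was lower (Fosl1, -0.36), or 1.37% beside 0.967%; only 45.5% of the 31-base words of Fosl1 are unique to it. With Srebf2, 7 of 67 were higher and 6 lower, or 19.4%, near the 17.2% of all genes called, so that the count is no result about the pathway. The changes were small: the scaffold gene Axin1 fell by 0.24 (adjusted p = 0.00572), the kinase gene Gsk3a by 0.19 and the transducer gene Dvl2 by 0.22, while the matricellular gene Ccn4 rose by 0.29 (adjusted p = 0.00250) and Tcf7l1 by 0.25. The doxycycline effect minus the Prrx1 transfection effect was called for 7 of 74 list genes, 5 higher and 2 lower, or 9.46% beside 4.0% of all genes: Ccnd1 (1.30), Igfbp4 (0.84), Tle3 (0.76), Tcf7l2 (0.68) and Ccn4 (0.63) were positive, and Tle1 (-0.91) and Wnt9a (-0.78) negative.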

How the data were processed

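Bulk RNA-seq of 30 libraries was deposited as transcript tables. Per the submitters' processing notes, the authors used kallisto 0.43.0 and mm10; the authors deposited an estimated count and a TPM value per transcript. The annotation release is not given in the sources used here: 116816 of 118491 target names matched GENCODE M21, and unmatched targets held 0.605 to 0.694% of counts. Estimated counts were summed per gene and rounded. At least 98.3% of the 31-base words of each of the 10 genes are unique to it.

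Groups follow the labels. Each experiment was fitted with edgeR 4.0.16 (R 4.3.3; TMM, filterByExpr with a minimum count of 10 and total of 15, robust quasi-likelihood F test, prior count 0.125, adjusted p under 0.05 over all genes), and the scripts were tested on simulated data. CPM used TMM over all 30 libraries; TPM served for levels between genes. Alternatives were DESeq2 1.42.0, limma 3.58.1, other filters and scalings, and omitted libraries. Intervals are 95%. All 10 genes, each delivered factor, up to 4 called genes per list and comparison, and the 3 genes most like Wnt5a and Rnf43 (mean of at least 5 CPM) are named; Axin2 was below that mean. The genes and lists were chosen with earlier results of these data known. No 2 libraries of the same group agreed within sampling noise.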

Additional observations from a re-analysis of the deposited data

Results flagged for a closer look

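For 3 genes the effect of doxycycline-induced Prrx1 differed from that of the Prrx1 plasmid by a test of the difference itself (edgeR, interaction contrast). For Wnt5a the log2 effect was 0.90 with doxycycline and 0.20 by transfection, a difference of 0.69 in the joint fit (adjusted p = 0.0414). For Rnf43 the log2 effects were 1.03 and 0.00, a difference of 1.02 (adjusted p = 0.0139). For Dkk3 they were 0.86 and 0.07, a difference of 0.80 (adjusted p = 0.0299). These calls were fragile. With 1 of the 12 libraries left out, Wnt5a lost its call in 10 fits, Dkk3 in 9 and Rnf43 in 1. Over all 21 other settings, those omissions included, Wnt5a kept its call in 8, Dkk3 in 9 and Rnf43 in 16. The replicate block ended that of Wnt5a (adjusted p = 0.061), and protein-coding transcripts alone ended those of Rnf43 (adjusted p = 0.541) and Dkk3 (adjusted p = 0.0537). The retained-intron share of all counts, at 6.21 ± 0.16% with and 6.01 ± 0.58% without doxycycline, was above the 3.09 ± 0.20% of the Prrx1 plasmid libraries and the 2.99 ± 0.13% of their controls; its part in these differences was not tested.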

How the results depend on the processing

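Of 1005 values of single Wnt pathway genes under other settings, 959 kept their side of the threshold, 44 lost a call, 2 gained one, and none of the called values changed sign; 94 uncalled values had another sign. limma on log2(TPM + 1) or log2(TPM + 0.1) called 1 of the 6 genes with doxycycline (Rnf43) and 0 for the difference between deliveries, and TPM raised the median of all genes by 0.15 on the log2 scale with Egr1 and with Jun. In the fit of all 30 libraries together, Apcdd1 gained the call for that difference (adjusted p = 0.041) and Rnf43 missed it (0.057); protein-coding transcripts alone left 1 of the 3.

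The counts of all genes called moved more. With doxycycline the count of 844 became 1326 without a filter, 162 and 156 with limma (TPM + 1 and + 0.1), and 2705 over all 30 libraries, where the share higher was 36.5% in place of 55.8%. With Prrx1 transfection 391 became 669 (DESeq2), 615 (no filter) and 151 (only the 2 groups). With Snai1 212 became 545 (DESeq2), 421 (no filter), 365 and 369 (limma) and 62 (2 groups). Snai1 against Prrx1 gave 33, and 66 (no filter), 9 (at least 5 CPM), 7 and 5 (limma), 78 (2 groups) and 18 (all libraries). With Egr1 47 became 205 (DESeq2), 1170 and 1273 (limma; 98.5% and 98.7% higher, against 61.7%), 23 (protein-coding) and 101 (all libraries). With Jun 140 became 511 (DESeq2), 244 (at least 5 CPM), 2202 and 2219 (limma; 97.9% and 97.7% higher, against 46.4%), 304 (2 groups) and 58 (all libraries). Jun against Egr1 gave 65, and 227 (DESeq2), 10 and 8 (limma), 129 (2 groups) and 100 (all libraries). With Srebf2 2194 became 1016 and 1018 (limma) and 569 (all libraries). The difference between deliveries gave 608, and 981 (DESeq2), 244 and 221 (limma) and 1900 (all libraries, 37.3% higher against 49.7%). The causes were not tested.

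Leaving out each replicate in turn, which leaves fewer libraries to a fit, the counts ran from 334 to 1250 with doxycycline, 103 to 2641 with Prrx1, 46 to 3058 with Snai1, 9 to 106 with Egr1, 27 to 327 with Jun, 968 to 2317 with Srebf2, 11 to 89 for Snai1 against Prrx1, 17 to 141 for Jun against Egr1, and 301 to 1116 for the difference between deliveries. The highest counts came without Prrx1-Snai1 control replicate 1 (2641, 3058, 89 and 1116), Egr1 replicate 3 (106 and 327) and Egr1-Jun control replicate 2 (141), and the lowest of 968 with Srebf2 without Srebf2 control replicate 2. The Wnt pathway genes called ran from 2 to 4 with doxycycline, 0 to 3 for that difference and 0 to 1 with Srebf2, and stayed at 0 in the other comparisons. Without both libraries that stand apart, 348 genes were called with Egr1, 292 with Jun and 570 for Jun against Egr1.

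The deviations of same-numbered libraries were only weakly correlated (-0.21 to 0.21). With so few replicates, these values do not settle whether the numbers mark a pairing. With the replicate number as a block, 842, 399, 292, 20, 73 and 2319 genes were called with doxycycline, Prrx1, Snai1, Egr1, Jun and Srebf2 in that order, 34 for Jun against Egr1 and 644 for the difference between deliveries; 4 of the 6 Wnt pathway genes were called with doxycycline, and Wnt5a missed the call for the difference (0.69; adjusted p = 0.061).

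Low counts limit what can be said of Axin2, Nkd1, Sfrp1 and Sfrp2. Axin2 and Nkd1 passed the filter only with a library left out (21 and 33 such fits). All 4 also entered fits without a filter, and none was called in any of these fits. Of the 6 tested genes, 4 kept the same lowest and highest group without TMM scaling and 4 by TPM; Apcdd1 (both), Dkk2 (without TMM) and Dkk3 (TPM) did not.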
